A study of Homo sapiens with 12 samples.

Results

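The comparison is between cells of an MTHFD2 knock-out clone of HCT116 harvested after 2 months in culture and cells of the same clone harvested at the start. HCT116 is an established human colon carcinoma cell line. MTHFD2 is a folate enzyme of mitochondrial one-carbon metabolism, and the study asks what its loss does to centromere methylation, chromosome stability and mitosis. The libraries were chosen by their labels alone. They are 3 final and 3 initial knock-out libraries, 6 of the 12 in the series, and the other 6 are MTHFD2-WT cells of the same line at the same harvests. The knock-out was made with CRISPR-Cas9 and came from a single clone, whose initial harvest followed directly on its isolation. All cells grew in DMEM with fetal bovine serum and antibiotics, and no group received a drug. The design text calls the 3 libraries of each group biological replicates, without saying whether they came from separate cultures, so the p-values measure the spread between these libraries. Passage number, cell density, hour of harvest and time since the last change of medium are not given in the sources used here. Each of these, and the day of harvest itself, cannot be told apart from the time in culture.

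Poly-A selected RNA was sequenced, and each value is a count of reads per gene. Totals ran from 38597809 to 40017561 counts in the 6 knock-out libraries, and 18289 genes passed the filter on low counts. Levels are CPM, the usual normalised count, in which each library's counts are brought to a common total after scaling by edgeR's TMM factors. A gene was called at an edgeR adjusted p (quasi-likelihood test, Benjamini-Hochberg over all genes tested) under 0.05. MTHFD2 stood at 128, 138 and 146 CPM in the initial and 155, 123 and 133 CPM in the final knock-out libraries, against means of 413 CPM at the initial and 355 CPM at the final harvest in wild type. Its log2 change over time in the knock-out was 0.00 ± 0.11 (SE, edgeR adjusted p = 1.0). Of 10 colon epithelial carcinoma markers 7 passed the filter. The summed level of all 10 was 2470 to 2700 CPM at the initial and 2210 to 2590 CPM at the final harvest. VIL1, LGR5, KRT20 and CEACAM5 among them were at 0.251 CPM or lower in each knock-out library. The 7 fibroblast markers summed to 37.5 to 48.2 CPM at the initial and 43.4 to 59.3 CPM at the final harvest, nearly all of it COL1A1 (36.2 to 57.5 CPM), while LUM and DCN had 0 counts in all 6 libraries. The 6 blood markers summed to 2.11 to 2.37 and 1.31 to 1.73 CPM, mostly LYZ, with PTPRC and CD3E at 0 counts, and the 4 endothelial markers to 2.40 to 3.46 and 2.86 to 3.27 CPM.

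Of 18289 genes 270 were called (1.48%), 153 of them higher (0.837%) and 117 lower (0.64%) at the final harvest. The median change of the 270 was 1.49-fold, and in each of them the initial and final CPM ranges were apart. Ranges were also apart in uncalled genes such as DBP, NR1D1 and BHLHE40. The share of all genes tested with ranges apart was not counted, so the separation adds nothing to the calls. A change of at least 2-fold was seen in 38 of the 270, of which 26 were higher and 12 lower. Protein-coding genes made up 121 of the raised and 115 of the lowered genes, and the rest, long non-coding RNAs and other biotypes, counted 32 raised and 2 lowered. Of 13787 protein-coding genes tested 1.71% were called, against 0.823% of 1336 antisense and 1.11% of 989 long intergenic RNAs. Over all tested genes of these 3 biotypes, called or not, the median log2 changes were -0.01, 0.12 and 0.15. The count of 270 depends on the libraries in the fit: it was 94 to 171 when 1 of the 6 knock-out libraries was left out (94 without initial replicate 3, 95 without initial 2, 97 without initial 1, 128 without final 1, 137 without final 2, 171 without final 3). With all else kept it was 599 with DESeq2 and 728 with only the knock-out libraries in the fit, and wild type, with 1183 called genes in the fit of all libraries, had 578 with only its own. It was 408 without wild-type initial replicate 1 and 463 without wild-type initial replicate 2, which enter this contrast only through the filter, the scaling and the estimate of the spread.

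**Figure D1:**
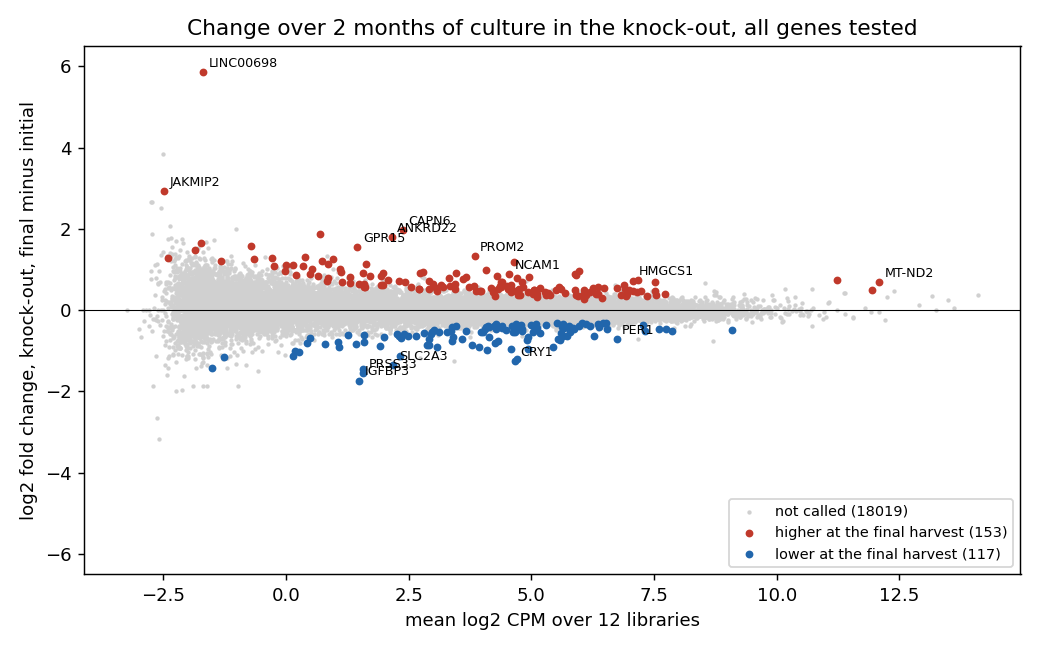
Change of each gene over 2 months of culture in the knock-out (y axis, log2 fold change, final minus initial) against its mean level (x axis, mean log2 CPM over the 12 libraries), 1 point per gene tested. Red points are the 153 genes called higher and blue points the 117 called lower, and most called genes lie within 1 log2 unit of 0.

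The circadian clock held more called genes than any other of the 36 gene lists examined that describe a pathway or gene family. The lists were chosen with earlier results of these data known, so this ranking is a description and not a test. The clock is a transcriptional loop in which BMAL1 and CLOCK switch on the period (PER) and cryptochrome (CRY) genes through E-box elements, and the PER and CRY proteins then shut BMAL1 and CLOCK off. The PAR bZIP factors DBP, TEF and HLF are outputs of the loop that act on D-box elements, and the receptors NR1D1 and NR1D2 repress BMAL1 through ROR elements. Most cell types carry this loop, and in cultured cells it can be set by serum and by temperature. Of 19 members 18 were tested, RORA being below the filter. The repressor arm fell: CRY1, CRY2, PER1, PER2 and PER3 were lower at the final harvest, as were the PAR bZIP genes TEF and HLF, and BMAL1 of the activator arm was higher. That is 7 lower and 1 higher of 18 (44.4%, against 1.48% of all genes), with a median log2 change of -0.40 over the list and 0.00 over all genes tested.

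CRY1 (chr12:106991364-107093549) stood at 40.3, 39.7 and 37.6 CPM in the initial libraries and at 16.2, 16.1 and 16.7 CPM in the final ones. Its log2 change was -1.26 ± 0.076 (SE, edgeR adjusted p = 3.17e-07). PER2 (chr2:238244044-238290102) stood at 38.1, 37.4 and 36.3 CPM and then at 16.2, 15.7 and 16.9 CPM. In both genes the groups lay more than 2-fold apart, far beyond the spread within a harvest, and PER2 changed by -1.20 ± 0.081 (edgeR adjusted p = 8.86e-07). CRY2 (chr11:45847118-45883248), the second cryptochrome, stood at 44.6, 39.1 and 36.7 CPM and then at 21.1, 21.1 and 20 CPM, a log2 change of -0.95 (edgeR adjusted p = 7.23e-05). PER1 (chr17:8140472-8156506), which also answers directly to serum and glucocorticoids, was at 123, 117 and 119 CPM and then at 71.1, 71.7 and 74.2 CPM (-0.72, edgeR adjusted p = 0.00012). PER3 (chr1:7784291-7845177) was at 12.4, 12.7 and 12.7 CPM and then at 6.82, 7.17 and 5.93 CPM (-0.92, edgeR adjusted p = 0.00265). The 3 period genes thus fell along with both cryptochromes, with no initial library as low as any final one.

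Among the outputs, TEF (chr22:41367333-41399326) was at 62.4, 65.6 and 59.9 CPM and then at 37.6, 35.3 and 40.7 CPM (log2 change -0.73, edgeR adjusted p = 7.1e-05). HLF (chr17:55264960-55325187) was at 4.77, 5.46 and 4.70 CPM and then at 2.82, 2.83 and 2.44 CPM (-0.88, edgeR adjusted p = 0.00154). The third PAR bZIP gene, DBP, was at 29.8, 32.6 and 30.5 CPM and then at 22.7, 24.6 and 25.9 CPM, ranges that did not overlap, but was not called (-0.34, edgeR adjusted p = 0.138). BMAL1 (chr11:13276652-13387266) moved the other way, from 13.4, 14.2 and 15.4 CPM to 22.0, 19.4 and 21.4 CPM (0.55, edgeR adjusted p = 0.00899). Its partner CLOCK was not called, at a mean of 99.7 ± 5.25 CPM (SD, n = 3) and then 113 ± 15.3 CPM (edgeR adjusted p = 0.502). The repressors of BMAL1, NR1D1 (0.16) and NR1D2 (0.09), were not called either, nor were NPAS2 (0.03), BMAL2 (0.05), NFIL3 (0.15) and CIART (0.29). BHLHE40 and BHLHE41, E-box repressors that clock proteins drive, had log2 changes of -0.47 and -0.46 and edgeR adjusted p-values of 0.0602 and 0.0997. Of the 26 alternative settings 11 called BHLHE40 lower, and 3 each called BHLHE41 and DBP.

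**Figure D2:**
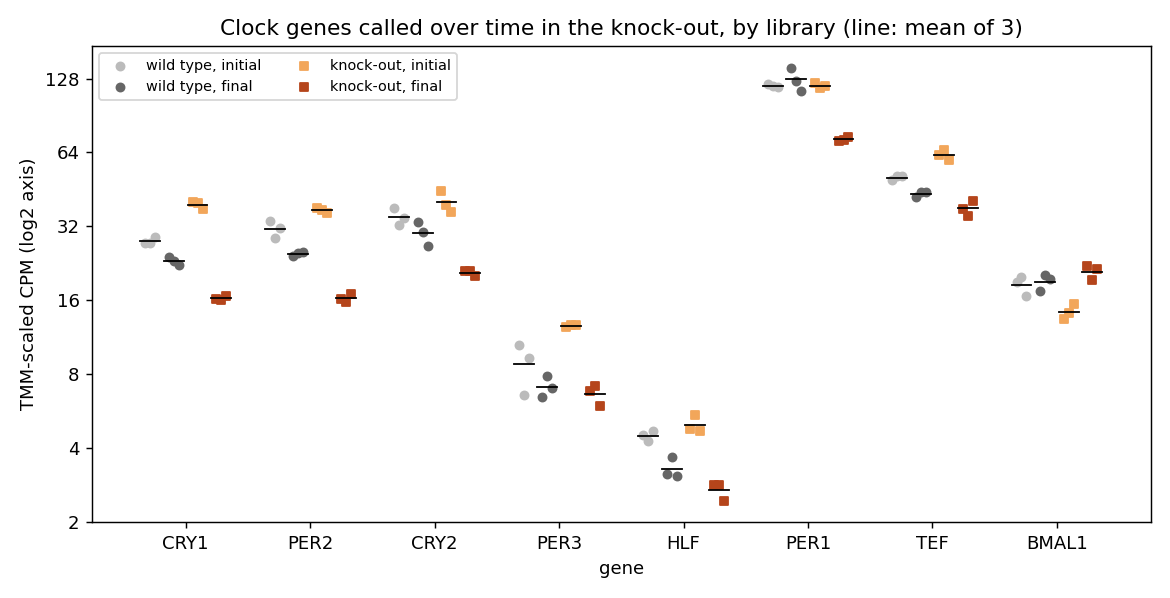
Level of the 8 called clock genes (y axis, TMM-scaled CPM on a log2 axis) in each of the 12 libraries, 1 point per library, with black lines at group means. In the knock-out, 7 genes lie lower at the final harvest and BMAL1 lies higher, without overlap, while the wild-type harvests lie closer together.

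Each of the 7 lowered clock genes was called under every alternative setting tried. BMAL1 was not called without initial replicate 1 or 2 or final replicate 1 (edgeR adjusted p 0.058 to 0.0753), nor against a minimum change of 1.2-fold (edgeR adjusted p = 0.182). CRY1, PER2, PER3, HLF and TEF each overlap an annotated gene on the other strand and PER1 overlaps 2 on its own strand, and whether the counting used strand is not stated.

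The promoters of called clock genes are shown because the genes moved together and the clock's elements are short sequences. The RefSeq windows (GRCh38.p14) run from 250 bases before the annotated start to 50 after, and all 18 tested clock genes had one. They were searched on both strands for the E-box CACGTG (in 7.43% of 27305 promoters, 1 a gene), its variant CACGTT (5.27%), the D-box TTACGTAA or TTATGTAA (1.05%) and the ROR element TAGGTCA (1.87%). Matches are in capitals below, 5′ to 3′ on the gene's strand, and a match on the opposite strand reads as its reverse complement. Positions count from the start, whose base is 1.
PER1 chr17:8152375-8152654 (- strand): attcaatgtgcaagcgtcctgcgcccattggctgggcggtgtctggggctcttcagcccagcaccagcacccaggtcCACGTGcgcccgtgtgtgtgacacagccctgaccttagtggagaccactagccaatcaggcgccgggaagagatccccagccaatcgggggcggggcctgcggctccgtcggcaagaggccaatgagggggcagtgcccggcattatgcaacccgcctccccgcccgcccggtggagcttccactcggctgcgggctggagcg
TEF chr22:41367205-41367484 (+ strand): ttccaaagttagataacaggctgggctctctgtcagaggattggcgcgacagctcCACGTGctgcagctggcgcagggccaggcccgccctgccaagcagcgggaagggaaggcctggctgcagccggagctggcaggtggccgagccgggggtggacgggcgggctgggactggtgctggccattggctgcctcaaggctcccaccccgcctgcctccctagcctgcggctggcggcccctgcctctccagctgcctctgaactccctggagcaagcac
PER2 chr2:238288581-238288860 (- strand): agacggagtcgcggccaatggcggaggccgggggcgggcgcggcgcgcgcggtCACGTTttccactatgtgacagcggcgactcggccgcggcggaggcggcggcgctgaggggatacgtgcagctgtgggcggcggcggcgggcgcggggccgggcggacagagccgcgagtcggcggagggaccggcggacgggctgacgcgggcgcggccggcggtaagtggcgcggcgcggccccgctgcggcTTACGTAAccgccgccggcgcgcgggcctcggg
CRY1 chr12:107093520-107093799 (- strand): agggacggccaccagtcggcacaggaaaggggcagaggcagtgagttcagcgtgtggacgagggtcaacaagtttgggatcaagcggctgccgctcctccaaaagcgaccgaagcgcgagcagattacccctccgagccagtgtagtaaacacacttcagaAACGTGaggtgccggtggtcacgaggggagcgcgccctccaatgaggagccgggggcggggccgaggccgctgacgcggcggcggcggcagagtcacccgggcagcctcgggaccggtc
PER3 chr1:7784041-7784320 (+ strand): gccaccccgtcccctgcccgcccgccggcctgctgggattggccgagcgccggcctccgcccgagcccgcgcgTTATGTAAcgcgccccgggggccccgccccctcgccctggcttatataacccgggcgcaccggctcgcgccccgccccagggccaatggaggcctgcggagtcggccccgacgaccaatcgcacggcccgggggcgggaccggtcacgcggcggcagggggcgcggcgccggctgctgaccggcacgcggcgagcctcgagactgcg
BMAL1 chr11:13277810-13277839 (+ strand): aggcagaaagTAGGTCAgggacggaggtgc
PER1 and TEF held the E-box, at -173 and -195. PER2 held the variant at -197 and a D-box that spans its start, from -3 to 5, and CRY1 held the variant on the opposite strand at -89. PER3 held a D-box at -177. BMAL1, the gene that rose, held the ROR element at 31, and for it only the bases 21 to 50 are shown. No match lay in the windows of CRY2 and HLF, and 4 of the 10 uncalled clock genes with a window also held a match, among them CIART with E-boxes at -129, -71 and -57. The matches describe these windows and were not tested as binding sites.

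Part of the fall was also seen in wild type, where CRY1 (-0.27, edgeR adjusted p = 0.0433), PER2 (-0.34, 0.0174) and HLF (-0.45, 0.0459) were called lower and no clock gene was called higher. Of all 18289 genes 625 were called lower in wild type. In wild type PER1 went from a mean of 120 to 127 CPM, CRY1 from 27.9 to 23.2 CPM, PER2 from 31.3 to 24.7 CPM and CRY2 from 35 to 30.1 CPM. The interaction of genotype and time tests the difference between the changes in the knock-out and in wild type, and was called in 235 of all genes (1.28%). Among the 18 clock genes it was called in 5, each more negative in the knock-out: CRY1 (-0.99, edgeR adjusted p = 0.000104), PER2 (-0.86, 0.000603), PER1 (-0.80, 0.00113), CRY2 (-0.74, 0.0144) and TEF (-0.51, 0.0266). For PER3, HLF and BMAL1 the difference was not called (edgeR adjusted p 0.193, 0.319 and 0.0997). The interaction of CRY2 was lost without wild-type initial replicate 3 (edgeR adjusted p = 0.0516), and that of TEF without any 1 of 8 libraries (0.0533 to 0.114), knock-out final 3, wild-type initial 1 and 2 and wild-type final 1 being the exceptions.

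The genes raised most belonged to varied functions. CAPN6 (chrX:111245099-111270483), a calpain without protease activity that binds microtubules, stood at 4.19, 4.89 and 4.26 CPM and then at 17.3, 15.8 and 19.1 CPM. Its log2 change of 1.97 ± 0.14 (SE, edgeR adjusted p = 1.23e-06) was the largest among genes with more than 3 counts in every knock-out library and an average level over the 12 libraries of 1 log2 CPM or more. NAV3 (chr12:77324641-78213010), another microtubule-binding protein, stood at 20.8, 21.1 and 22.0 CPM and then at 51.5, 47.8 and 46.3 CPM (1.19, edgeR adjusted p = 1.23e-06). Both genes kept narrow ranges within each harvest. ADGRF1 (chr6:46997708-47042350), an adhesion G protein-coupled receptor, was at 33.6, 35 and 32.7 CPM and then at 67.8, 66.5 and 63.4 CPM (0.96, edgeR adjusted p = 6.45e-06). PROM2, a membrane protein of plasma membrane protrusions in epithelia, was at 7.04, 5.96 and 5.08 CPM and then at 13.6, 17.1 and 14.8 CPM (1.33, edgeR adjusted p = 7.23e-05). MEF2C, a MADS-box transcription factor, rose from 11.9 ± 0.766 to 23.7 ± 1.99 CPM (SD, n = 3, edgeR adjusted p = 0.000466).

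Several of the genes raised most were scarce. GPR15, a chemoattractant receptor known for homing of T cells to the colon, was at 1.54, 1.48 and 1.2 CPM and then at 4.73, 4.34 and 3.32 CPM (log2 change 1.55, edgeR adjusted p = 0.000616). ANKRD22 varied within a harvest, from 0.802 to 1.99 CPM at the initial and from 3.99 to 6.39 CPM at the final one (1.80, edgeR adjusted p = 0.000818). The receptor TLR1 rose from 1.12 ± 0.15 to 2.27 ± 0.145 CPM (SD, n = 3, edgeR adjusted p = 0.00299). The sodium-glucose transporter SLC5A1 (1.13), the antisense RNA ENSG00000272631 (0.94), the cadherin FAT4 (0.93) and KCTD12 (0.92), a subunit of GABA-B receptors, were also called, with edgeR adjusted p-values between 0.0153 and 0.03. These 4 calls were less firm: SLC5A1 lost its call without knock-out initial 2 or 3 or final 2 or 3 (edgeR adjusted p up to 0.0749), KCTD12 without any initial or final 1 (up to 0.0941), ENSG00000272631 without any but final 1 (up to 0.127) and FAT4 without any 1 of the 6 (up to 0.132). LINC00698, a long intergenic RNA, was at the floor of 3 counts or fewer with 0, 1 and 0 counts at the start, and had 28, 30 and 21 counts at the end, at least 8.78-fold higher than the floor of 3 counts per library.

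**Figure D3:**
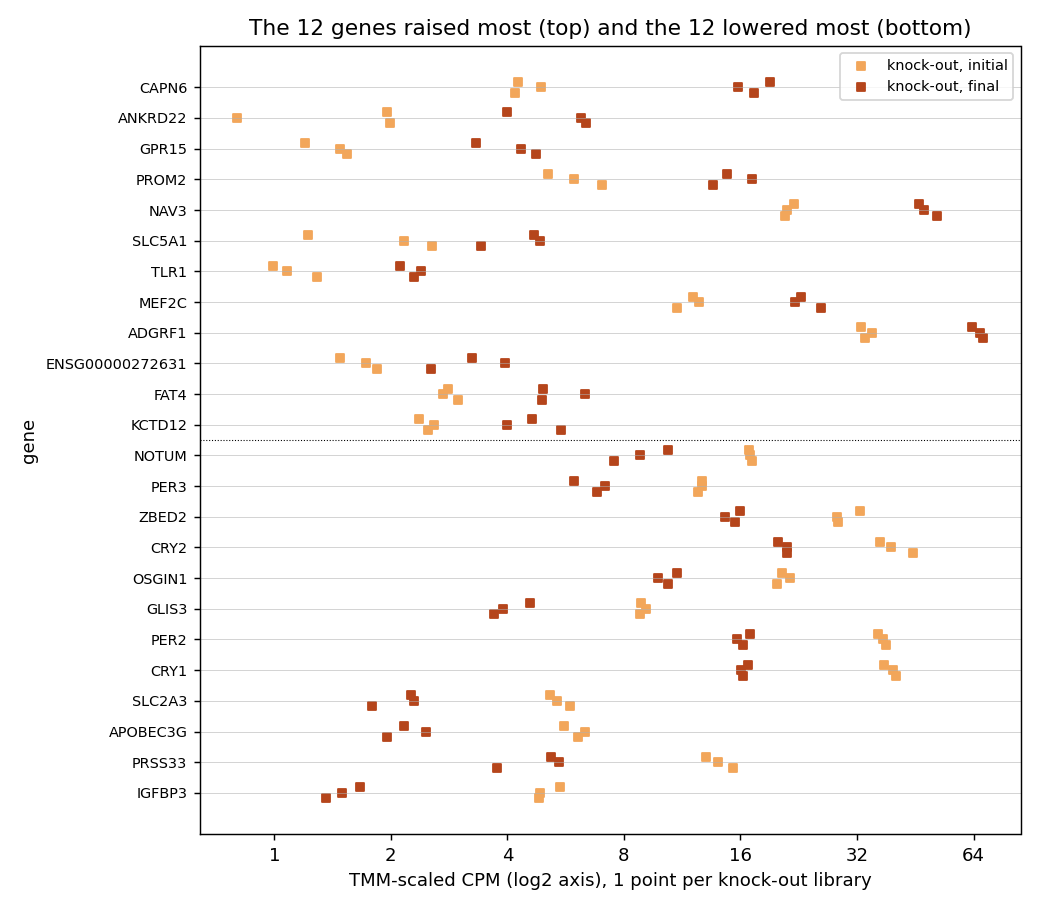
Level of the 12 genes raised most (top) and the 12 lowered most (bottom) over time in the knock-out (x axis, TMM-scaled CPM on a log2 axis), 1 point for each of the 3 initial and 3 final libraries. For each of the 24 genes the initial and final points do not overlap, which was a condition of their choice.

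The genes lowered most included secreted proteins and a glucose transporter beside the clock genes. IGFBP3 (chr7:45912245-45921874), the main carrier of insulin-like growth factors in serum, stood at 4.84, 4.86 and 5.46 CPM and then at 1.36, 1.5 and 1.66 CPM. Its log2 change of -1.74 ± 0.16 (SE, edgeR adjusted p = 1.94e-05) was the most negative by the same criteria, and none of the other 14 tested members of the insulin-like growth factor list was called. PRSS33 (chr16:2783953-2787948), a serine protease, was at 15.3, 14.0 and 13.0 CPM and then at 3.75, 5.43 and 5.17 CPM (-1.56, edgeR adjusted p = 1.37e-05). APOBEC3G (chr22:39077067-39087743), a cytidine deaminase that restricts retroviruses, fell from 6.01 ± 0.368 to 2.20 ± 0.258 CPM (SD, n = 3, edgeR adjusted p = 4.16e-05). SLC2A3, the glucose transporter GLUT3, was at 5.80, 5.36 and 5.15 CPM and then at 1.79, 2.30 and 2.26 CPM (-1.36, edgeR adjusted p = 0.00202). It was the only called gene of the 22 of glycolysis and glucose uptake, of which 20 had a log2 change below 0 and whose median was -0.11. The zinc finger factor GLIS3 (-1.14), the NRF2 target OSGIN1 (-0.99), the zinc finger gene ZBED2 (-0.95) and the Wnt deacylase NOTUM (-0.92) completed the 12, with edgeR adjusted p-values from 6.78e-05 to 0.00176. OSGIN1 was the only 1 of 22 tested NRF2 targets to be called.

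IGFBP3, PRSS33, APOBEC3G, SLC2A3, GLIS3 and NOTUM also fell in wild type, by log2 changes of -2.08, -2.34, -1.74, -1.10, -1.22 and -1.07, and none of the 6 had a called interaction (edgeR adjusted p 0.206 to 0.89). GPR15, TLR1, MEF2C, ADGRF1 and ENSG00000272631 likewise rose in wild type, by 1.2, 0.65, 1.03, 1.15 and 0.73. Other genes went their own way in the knock-out. CAPN6 fell in wild type from 4.88 to 1.97 CPM and its interaction was 3.27 (edgeR adjusted p = 1.26e-06). NAV3 stayed uncalled in wild type, at 20.8 and 18 CPM, and its interaction was 1.39 (edgeR adjusted p = 1.49e-05). Over all 270 genes, 101 were called in the same direction in wild type, which is 37.4% of the knock-out list and 8.54% of the 1183 genes (6.47%) called in wild type, and 18 were called in the opposite direction. The interaction was called in 59 of the 270, 41 of them raised and 18 lowered in the knock-out.

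**Figure D4:**
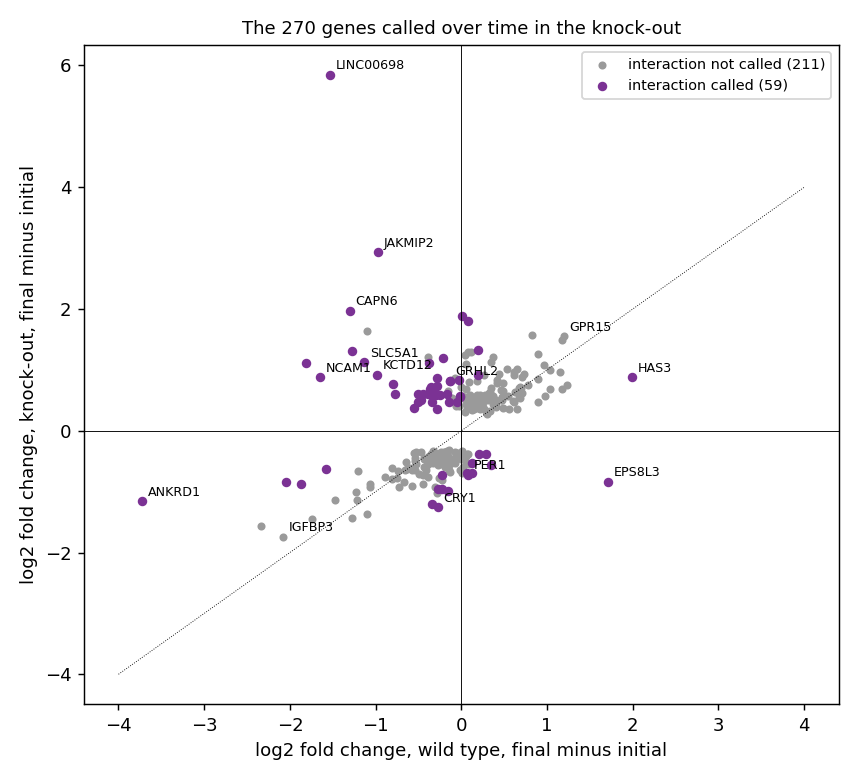
Change over time in the knock-out (y axis) against that in wild type (x axis), both log2 fold changes of final over initial, for the 270 genes called in the knock-out. Purple points are the 59 with a called interaction, among them CAPN6, NCAM1, SLC5A1 and KCTD12, which rose in the knock-out and fell in wild type, and the dotted line marks equal change.

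Interactions were ranked only among the 59 genes called over time in the knock-out that also had a called interaction. The most extreme of these, beyond CAPN6, were LINC00698 and JAKMIP2 in the positive and EPS8L3, HAS3 and CRY1 in the negative direction. LINC00698 fell in wild type from 0.717 to 0.247 CPM. JAKMIP2 was scarce throughout, at 0.0252, 0.1 and 0.051 CPM and then at 0.302, 0.587 and 0.527 CPM in the knock-out. EPS8L3, an adaptor of EPS8-type actin regulators, was at 3.78, 3.38 and 4.19 CPM and then at 2.04, 2.30 and 1.98 CPM, while in wild type it rose from 1.37 to 4.50 CPM (interaction -2.56, edgeR adjusted p = 2.05e-05). HAS3, a hyaluronan synthase, was at 25.2, 25.6 and 22.8 CPM and then at 44.9, 46.1 and 45.0 CPM in the knock-out and rose from 52.8 to 210 CPM in wild type (interaction -1.11, edgeR adjusted p = 0.000264). The negative interaction was thus a fall against a rise in EPS8L3, and a smaller rise in HAS3. The time change of EPS8L3 was not called without knock-out initial 1 or 3 or final 1 (edgeR adjusted p up to 0.0819), and the interaction of JAKMIP2 was not called without wild-type final 2 or knock-out initial 3 (0.0512 and 0.0533).

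Epithelial genes divided. ESRP1, a splicing regulator of epithelial cells, was at 126, 140 and 135 CPM and then at 181, 180 and 192 CPM (0.47, edgeR adjusted p = 0.00365). GRHL2, a transcription factor that maintains the epithelial state, was at 16.6, 16.9 and 15.8 CPM and then at 29.6, 27.4 and 30.4 CPM (0.82, edgeR adjusted p = 3.22e-05). KRT7, a keratin, fell from 10.2 ± 0.313 to 5.66 ± 0.305 CPM (SD, n = 3, edgeR adjusted p = 0.00111). It fell further in wild type, from 14.3 to 3.48 CPM (interaction 1.19, edgeR adjusted p = 0.0012). ESRP2 was at the threshold (-0.33, edgeR adjusted p = 0.0499) and uncalled under most alternatives, leaving out any knock-out library among them (up to 0.221). Of 30 epithelial genes 2 were thus called higher and 2 lower (13.3%, against 1.48% of all genes), 21 lay above 0, and the median was 0.13. The interaction was called in 6 of the 30, each more positive in the knock-out, against 1.28% of all genes in either direction. Of 21 tested mesenchymal genes NCAM1 was called higher and the repressor of epithelial genes ZEB1 lower (-0.64, edgeR adjusted p = 0.0329; 9.52% of the list), 16 lay below 0, and the median was -0.18. The call of ZEB1 was lost without any 1 knock-out library but final replicate 1 (edgeR adjusted p 0.0963 to 0.159). Other genes of epithelia were picked after their values were seen, because they rose, so they cannot support a rise of epithelial genes. They were EPN3 (10.6 to 19.0 CPM), AP1M2 (52.1 to 76.1 CPM), TMEM125 (6.29 to 9.57 CPM) and MACC1, a regulator linked to colon cancer spread (5.65 to 10.6 CPM). AP1M2 was not called without initial 1 or 3 or final 1 or 3 (edgeR adjusted p up to 0.077), and TMEM125 not without initial 2 or 3 or final 1 (up to 0.0941).

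At the start the raised genes GRHL2, ESRP1, EPN3, AP1M2, TMEM125, MACC1 and PROM2 had lower means in the clone than in wild type. At the end their means were nearer to it. The difference between genotypes within a harvest was not tested here. All of these genes were named because they rose, which by itself favours a low start and a positive interaction. How many of the 153 raised genes did the same was not counted. GRHL2 had a mean of 16.5 CPM in the initial and 29.1 CPM in the final knock-out libraries, against 45.8 and 42.0 CPM in wild type. PROM2 had 6.03 and 15.2 CPM against 20.3 and 23.2 CPM, EPN3 10.6 and 19.0 CPM against 28.1 and 27.5 CPM, and ESRP1 134 and 184 CPM against 217 and 211 CPM. AP1M2 had 52.1 and 76.1 CPM against 94.0 and 93.7 CPM, TMEM125 6.29 and 9.57 CPM against 14.2 and 12.6 CPM, and MACC1 5.65 and 10.6 CPM against 14.6 and 16.9 CPM. The interaction was 0.78 for TMEM125 (edgeR adjusted p = 0.0193) and 0.71 for MACC1 (0.0326), both lost without some libraries (up to 0.0781 and 0.116), and was not called for AP1M2 (0.55, 0.0793). The other interactions were 0.95 for GRHL2 (edgeR adjusted p = 0.000231), 1.14 for PROM2 (0.00538), 0.87 for EPN3 (0.00501) and 0.51 for ESRP1 (0.0237), the last of which was lost without any 1 of 8 libraries (0.0504 to 0.0976), all but knock-out final 2 and wild-type initial 1 and 2 and final 1. NCAM1, the neural cell adhesion molecule, did not approach wild type: it stood at 61.1, 55.9 and 51.1 CPM and then at 96.9, 112 and 99.6 CPM in the knock-out, and fell from 12.8 to 4.06 CPM in wild type (interaction 2.53, edgeR adjusted p = 1.46e-06). With NECTIN3 (131 to 184 CPM), NCAM1 was the called part of 19 tested immunoglobulin-type adhesion genes (10.5%), whose median was -0.05. NECTIN3 kept its call only without final replicate 3 among the 6 knock-out libraries (edgeR adjusted p 0.0814 to 0.107 otherwise).

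Growth factor signalling genes fell in part. The feedback genes of the MAPK pathway, which the pathway switches on and which dampen it, and the ligands of the EGF receptor counted 5 lowered and 0 raised among 25 (20%, against 0.64% of all genes called lower), with a median of -0.07. SPRY4, an inhibitor of receptor signalling, was at 196, 185 and 194 CPM and then at 138, 140 and 137 CPM (-0.47, edgeR adjusted p = 0.00334). The phosphatase DUSP4 was at 200, 193 and 200 CPM and then at 153, 132 and 143 CPM (-0.47, edgeR adjusted p = 0.00348). DUSP5 (-0.52), the receptor EPHA2 (-0.50) and the ligand HBEGF (-0.53) were less firm, and leaving out any 1 of the 6 knock-out libraries left 2 of the list, or 3 without final replicate 1. None of the 5 was called against a minimum change of 1.2-fold. In wild type 5 of the 25 were called lower, SPRY4 (-0.43) and EPHA2 (-0.54) among them, and 2 higher, with a median of -0.05. Of all 18289 genes wild type had 625 called lower and 558 higher. JUN, 1 of 23 immediate early genes, was called lower (42.1 ± 3.1 to 22.3 ± 6.6 CPM, SD, n = 3, edgeR adjusted p = 0.0398), 19 of the 23 lay below 0 and their median was -0.30. The call of JUN was lost without 5 of the 6 knock-out libraries (all but final 1) and without wild-type initial 3 or final 2 (edgeR adjusted p 0.052 to 0.153).

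Among YAP and TEAD targets, 3 of 18 tested were lowered (16.7%, against 0.64% of all genes): F3, tissue factor, at 51.4, 47.7 and 47.8 CPM and then 29.9, 32.8 and 27.7 CPM (-0.70, edgeR adjusted p = 0.000971), AJUBA (-0.44) and ANKRD1 (-1.16). In wild type 10 of the 18 were called lower and 1 higher, against 625 lower and 558 higher of all 18289 genes. The median of the list was -0.40 in wild type and -0.25 in the knock-out. F3 alone of the 3 had a more negative change than in wild type (interaction -0.77, edgeR adjusted p = 0.00709), and ANKRD1 fell further in wild type, from 0.734 to 0.0524 CPM. AJUBA was not called without initial replicate 3 (edgeR adjusted p = 0.0523) and ANKRD1 not without any 1 knock-out library (0.0731 to 0.132), nor was the interaction of ANKRD1 called without wild-type final 3 (0.058). Of 20 tested Wnt genes, the feedback inhibitors AXIN2 and NOTUM fell and the ligand WNT16 rose (15.0% called, against 1.48% of all genes), with a median of -0.13. AXIN2 was at 61.8, 58.6 and 65.4 CPM and then at 42.1, 43.2 and 40.2 CPM (-0.57, edgeR adjusted p = 0.0018). NOTUM was at 17.1, 16.9 and 16.8 CPM and then at 7.52, 8.80 and 10.4 CPM. WNT16 went from 5.42 to 7.55 CPM and was not called without an initial library or final replicate 1 (edgeR adjusted p 0.0761 to 0.147). The ligands PDGFA (31.7, 33.0 and 32.6 CPM, then 18.6, 18 and 19.1 CPM) and PDGFB (22.0, 23.7 and 23.5 CPM, then 15.4, 13.3 and 15.2 CPM), picked after their values were seen, both fell (edgeR adjusted p = 2.91e-05 and 0.00214), and both fell in wild type too. PDGFC, of the same ligand family, was called higher in the knock-out, from 57.4 to 74.5 CPM (0.38, edgeR adjusted p = 0.0168). It fell in wild type (-0.55), and its interaction was 0.93 (edgeR adjusted p = 0.000227).

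Of the lipid synthesis genes 5 were called, all higher. HMGCS1, the synthase that supplies HMG-CoA for cholesterol synthesis, was at 112, 120 and 128 CPM and then at 206, 191 and 195 CPM (0.72, edgeR adjusted p = 0.000114). Of 24 cholesterol genes 3 were called higher (12.5%, against 0.837% of all genes), with INSIG1 (0.36) and HSD17B7 (0.53) beside it, 22 lay above 0, and the median was 0.26. In wild type 11 were called higher, against 558 of all 18289 genes, with a median of 0.41, and no member had a called interaction. Of 14 tested fatty acid genes the elongase ELOVL6 (140 ± 1.73 to 192 ± 13.5 CPM, SD, n = 3, edgeR adjusted p = 0.00898) and the desaturase SCD (3160 ± 151 to 4450 ± 324 CPM, edgeR adjusted p = 0.0283) were called (14.3%), 13 lay above 0 and the median was 0.21. Only HMGCS1 of these 5 kept its call without each knock-out library in turn: INSIG1 and SCD lost it without any 1 of the 6 (edgeR adjusted p up to 0.158 and 0.167, SCD also without wild-type initial 3), ELOVL6 without any but final 3 (up to 0.0643) and HSD17B7 without initial 1 or 3 or final 3 (up to 0.0892).

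Genes of centromeres, mitosis, DNA replication, one-carbon folate metabolism and methylation showed few or no calls over time in the clone. None of 40 centromere and kinetochore genes was called by edgeR, with 5 at an unadjusted p under 0.05 and 0 called by DESeq2, and their median log2 change was -0.04. None of 33 mitosis genes was called by edgeR, with 5 at an unadjusted p under 0.05 and 1 called by DESeq2. The mitosis genes lay below 0 in 31 of 33 cases, by a median of -0.11. Of 37 DNA replication genes 0 were called by edgeR, 3 had an unadjusted p under 0.05 and 1 was called by DESeq2 (median -0.09). Of 18 one-carbon folate enzymes 0 were called by edgeR, 1 had an unadjusted p under 0.05 and 0 were called by DESeq2. Among 32 enzymes of DNA and histone methylation the histone demethylase KDM4C alone was called, higher at 31.4, 32.9 and 33.0 CPM than at 23.7, 25.7 and 25.3 CPM (0.38, edgeR adjusted p = 0.0224), and the call was lost without any 1 knock-out library (0.0724 to 0.151) and when the trend with gene length was removed.

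Stress response lists held 1 called gene or none. None of 18 genes of the unfolded protein response of the endoplasmic reticulum was called by edgeR, with 6 at an unadjusted p under 0.05 and 1 called by DESeq2, and none of 18 hypoxia genes, with 1 and 1. DDIT3, the stress factor CHOP, went from 14.8 ± 2.52 to 8.08 ± 1.09 CPM (SD, n = 3, edgeR adjusted p = 0.0243), as 1 of 34 tested serine synthesis and ATF4 targets. In wild type 13 of the 34 were called lower, against 625 of all 18289 genes. The p53 target BTG2 (68.5 to 49.3 CPM) was the called 1 of 31, the interferon-stimulated gene IFIT1 (15.9 to 11.1 CPM) the called 1 of 28, and the heat shock gene DNAJB1 (188 to 130 CPM) the called 1 of 18. Outside the stress lists, INHBB, a subunit of activin, was the called 1 of 24 tested TGF-beta and BMP targets (2.15 to 1.33 CPM), and the laminin subunit LAMA3 (16.4 to 26.6 CPM) the called 1 of 24 tested basement membrane genes. In the lists with 1 called gene that call was 2.94% to 7.69% of the members tested, against 1.48% of all genes and 1.89% of those that averaged 1 log2 CPM or more. These 6 calls did not survive each removal of a knock-out library. The edgeR adjusted p reached 0.122 for DDIT3 (all but initial 2), 0.0779 for BTG2, 0.0912 for DNAJB1 and 0.0774 for LAMA3 (each initial 2 or 3 or final 2), 0.125 for IFIT1 (any initial or final 2) and 0.183 for INHBB (any knock-out library, or wild-type initial 3, final 2 or final 3).

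All 13 proteins encoded by mitochondrial DNA had a log2 change above 0, with a median of 0.37, and MT-ND2 was called. MT-ND2, a subunit of complex I, was at 3180, 3590 and 3400 CPM and then at 5980, 5120 and 5140 CPM (0.68, edgeR adjusted p = 0.0455), and lost its call without any 1 knock-out library or without wild-type initial 3 or final 2 (0.0701 to 0.206). Its call was also lost with the trend on GC content removed (0.61, edgeR adjusted p = 0.0765) and with that on gene length removed (0.66, 0.0642). Mitochondrial genes took 8.07% to 8.36% of counts in the initial and 9.07% to 10.4% in the final knock-out libraries. In wild type 9 of the 13 were called higher, against 558 of all 18289 genes, with a median of 0.84.

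**Figure D5:**
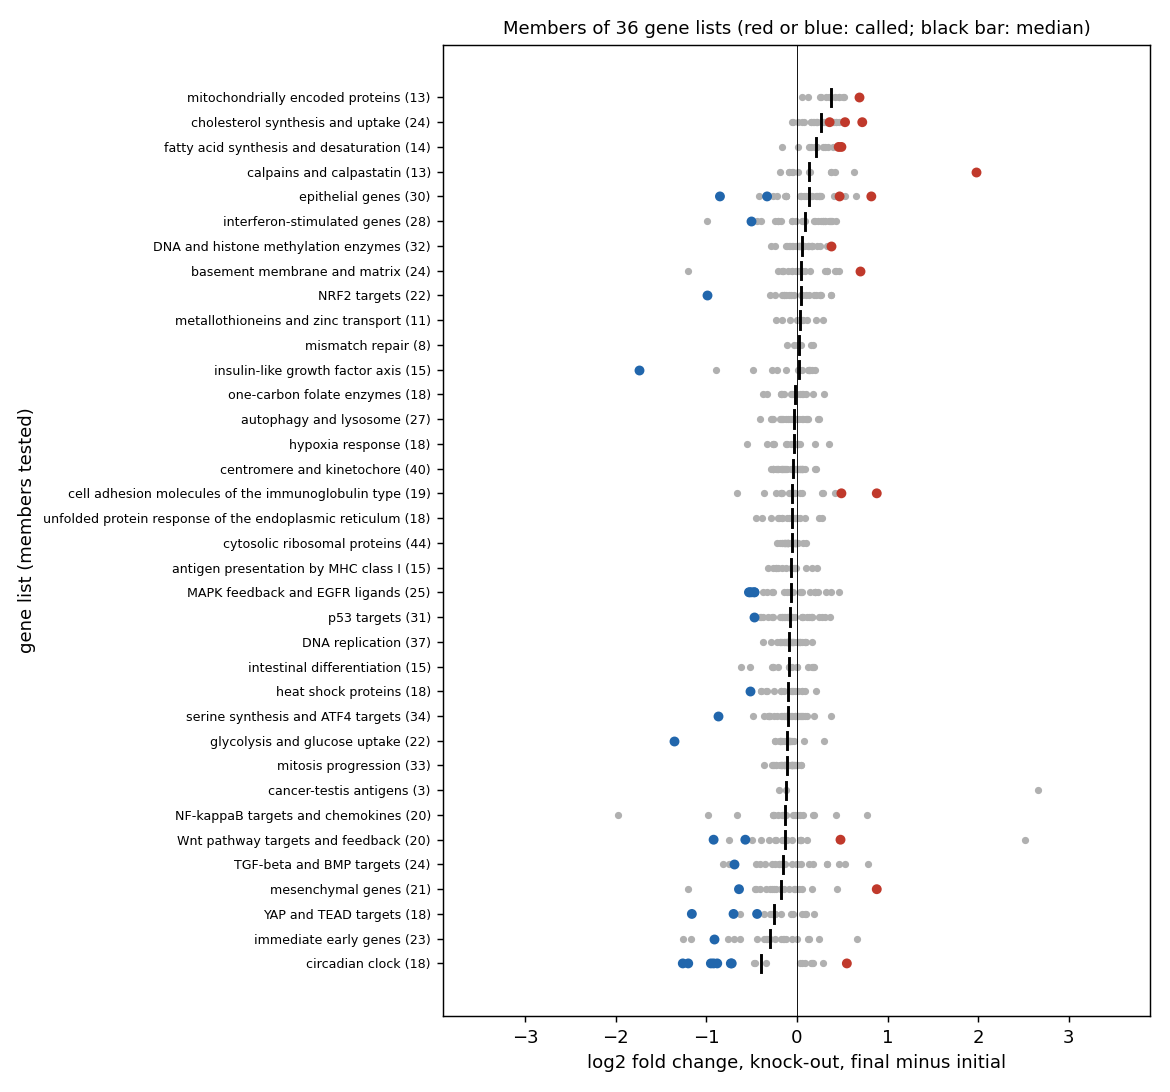
Log2 change over time in the knock-out (x axis) of the tested members of 36 gene lists (y axis, number tested in brackets), 1 point per gene, red or blue where called higher or lower and grey where not called. Black bars are list medians, and the circadian clock at the bottom, with 7 blue points and 1 red, has the lowest, at -0.40.

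The change over time ran with the base composition of the genes. Across the 12495 genes that averaged 1 log2 CPM or more and had a GC value, the log2 change had a Pearson r of -0.38 and a Spearman rho of -0.43 with GC content, and 0.23 and 0.29 with log2 gene length. These are correlations across genes, which share the 6 libraries and are not independent replicates. The genes were split by GC content into 5 bins of nearly equal size. In the bin with the lowest GC (27.9% to 42.1%) 25 genes were called higher and 3 lower, and in the bin with the highest (58.6% to 74.8%) 5 higher and 42 lower. The median changes of the 5 bins ran from 0.07 to -0.12. The gap between the highest and lowest bin was 0.18, 0.12 and 0.00 log2 units in the initial and -0.27, -0.07 and 0.06 in the final libraries, so that final replicate 3 lay within the initial range. The wild-type libraries, on the same measure, gave -0.24, 0.14 and -0.04 at the initial and 0.08, -0.07 and -0.18 at the final harvest. The gap thus also varied widely within a harvest. In wild type the change over time had a Pearson r of -0.04 with GC content. With the trend on GC removed from each library, 302 genes (1.65%) were called, 176 higher and 126 lower, and the clock list still counted 7 lower and 1 higher. Of the 69 named genes called over time, 5 lost the call with the GC trend removed: MT-ND2, JUN, INHBB and ESRP2, and SCD only in the fit that also held the replicate number as a block.

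By position, calls were spread over all autosomes and the X chromosome. Of the 12537 genes that averaged 1 log2 CPM or more, 1.89% were called. Chromosome 4 had 16 higher and 3 lower among 449 genes (4.23%), and chromosome 17 had 5 higher and 19 lower among 777 (3.09%). With the GC trend removed the counts were 14 and 3 on chromosome 4 and 5 and 12 on chromosome 17, and their medians were 0.01 and -0.03. Called genes that are neighbours among the genes tested formed 9 pairs, none overlapping, each with the same direction in both genes. They included the lowered TEF on chromosome 22 and the raised NAV3 on chromosome 12, each with the next gene tested. The number of such pairs to be met from the share of called genes alone was not worked out, and copy number was not measured.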

How the data were processed

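RNA of 12 poly-A selected libraries was analysed, in 4 groups of 3. The authors deposited raw counts per gene with no normalization, in the column layout of featureCounts per the file headers. The submitters' processing notes name STAR, featureCounts and Subread, with no version, and the build hg38. The annotation release, strand setting and treatment of multi-mapping reads are not given in the sources used here. The table has 60648 usable genes, 60636 with a symbol. Its 5 lines that hold 1 broken gene were left out.

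After filterByExpr by group and TMM scaling, edgeR 4.0.16 was run with R 4.3.3 and limma 3.58.1. The fit was the robust quasi-likelihood one, with a mean for each of the 4 groups over all 12 libraries. The contrasts were final minus initial in each genotype and their interaction, with Benjamini-Hochberg adjustment over 18289 genes and a threshold of 0.05. The common biological coefficient of variation was 9.77%. Intervals of counts and floors cover counting error only. The fit was tested on simulated data. Log CPM used a prior count of 2 and the GC table a pseudocount of 0.5. Python 3.11.15, pandas 2.3.3, scipy 1.17.1 and matplotlib 3.10.9 were used for summaries.

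Named genes are MTHFD2, the 12 raised and 12 lowered most (called, mean log2 CPM at least 1, over 3 counts in every knock-out library, ranges apart), the called gene at the floor of 3 counts with the highest mean, and the called gene with the smallest adjusted p in each list. They also include the 3 most positive and 3 most negative interactions among genes called both over time in the knock-out and in the interaction. This gave 44 genes. Also named are the clock genes, the other called members of lists, and genes that the text says were picked after their values were seen. PDGFC, given only beside PDGFA and PDGFB, is not in the counts of named genes or of their calls under the alternatives. The comparison, the 40 lists and the rule were chosen with earlier results of these data known. GC content came from GENCODE 29 transcripts, matched by gene ID for 58380 genes. Promoters came from RefSeq (GRCh38.p14). A further clock gene was left out of the list and is not reported here.

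Alternatives were RLE factors, DESeq2 1.42.0, limma-voom, no filter, at least 10 counts in 3 libraries, only the genotype's libraries, the replicate number as a block, non-robust dispersions, a test against a 1.2-fold change, removal of the GC or length trend (lowess, span 0.3), and leaving out each library.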

Additional observations from a re-analysis of the deposited data

Results flagged for a closer look

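In 26 of the named genes the change over time differed between the genotypes by the interaction test of edgeR. Values are log2 differences, the change in the knock-out minus the change in wild type. Genes with a larger rise or smaller fall in the knock-out were LINC00698 (7.38, a fitted value from a group at the floor and no bound), JAKMIP2 (3.91), CAPN6 (3.27), ANKRD1 (2.56), NCAM1 (2.53), SLC5A1 (2.25), KCTD12 (1.90), ANKRD22 (1.72), NAV3 (1.39), KRT7 (1.19), PROM2 (1.14), GRHL2 (0.95), EPN3 (0.87), TMEM125 (0.78), MACC1 (0.71) and ESRP1 (0.51). Genes with a larger fall or smaller rise were EPS8L3 (-2.56), HAS3 (-1.11), CRY1 (-0.99), PER2 (-0.86), OSGIN1 (-0.83), PER1 (-0.80), F3 (-0.77), CRY2 (-0.74), ZBED2 (-0.68) and TEF (-0.51). Of the 26 interactions 18 were called under every alternative that could be fitted. The others, ZBED2, CRY2, JAKMIP2, TMEM125, MACC1, ESRP1, ANKRD1 and TEF, lost the call when 1 library was left out, and the highest edgeR adjusted p this gave was 0.132 for ZBED2, 0.0516 for CRY2, 0.0533 for JAKMIP2, 0.0781 for TMEM125, 0.116 for MACC1, 0.0976 for ESRP1, 0.058 for ANKRD1 and 0.114 for TEF. No cause of these differences was tested.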

How the results depend on the processing

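Of 69 named genes called over time in the knock-out, 33 were called under all 26 alternatives, 2 (LINC00698 and JAKMIP2) under the 25 that gave them an adjusted p, DESeq2 giving none, and 34 lost the call in at least 1, each of these against a minimum change of 1.2-fold. The 270 genes called over time became 599 with DESeq2, 484 with no filter, 728 with only the knock-out libraries, 592 with those and the replicate block, and 58 against a 1.2-fold change. Those called higher (153) became 322, 272, 381, 319 and 31, and those lower (117) became 277, 212, 347, 273 and 27. Leaving out 1 library gave 94 to 463 in all, 49 to 253 higher and 43 to 210 lower. The 235 interactions became 464 with DESeq2, 423 with no filter, 106 against a 1.2-fold change, and 124 to 444 with 1 library left out. The 1183 calls in wild type became 578 with only its libraries, 372 against a 1.2-fold change, and 627 to 1399 with 1 library left out. Uncalled clock genes changed sign: NPAS2 to -0.05 with the length trend removed, with and without the block, NR1D2 to -0.04 without knock-out final 1 (range over libraries left out -0.04 to 0.15), and BMAL2 to -0.02 with the GC trend removed, with and without the block, and to -0.05 without knock-out final 1 (range -0.05 to 0.1). The cause was not tested.

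Replicate numbers are shared between groups, but nothing says that they pair libraries. Deviations from group means correlated at -0.129, -0.153 and 0.03 in same-numbered knock-out libraries, and at -0.172 to 0.283 in differently numbered ones. In wild type the same-numbered libraries gave 0.15, 0.066 and 0.011, and the differently numbered ones -0.118 to 0.079. No pairing was taken, since the labels give none. With the replicate block over all libraries 246 genes were called, 141 higher and 105 lower.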
